A study of Mus musculus with 2 samples.

Results

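The 34 genes described here are imprinted genes, chosen by symbol from a fixed list, and all 34 were found among the 18888 genes of the deposited table. They fall into 17 imprinted groups on 9 chromosomes. Of these groups, 8 hold more than 1 of the genes and 9 hold a single gene, and 15 of the 34 genes lie on chromosome 7. RNA was sequenced from 46C mouse embryonic stem cells (mESCs), a line that carries a GFP reporter in the Sox1 gene, at passages 21 to 24 and maintained in medium with LIF and serum. PB mESCs were transfected with the empty PiggyBac (PB) vector. PB-TERRA mESCs carried the same vector with telomeric repeats, from which polyadenylated telomeric noncoding RNA (TERRA) is made. Each condition is 1 library, so every value below compares 2 libraries, no replicate spread can be estimated and no test was possible. Whether the cells were 1 clone or a pool, and the promoter that drives TERRA, are not given in the sources used here.

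An imprinted gene is expressed mainly from the allele of 1 parent. Imprinted genes lie in clusters, in which an imprinting control region carries DNA methylation from either the egg or the sperm, and a noncoding RNA or an insulator at that region silences neighbouring genes on the same chromosome. Many paternally expressed members promote growth of the embryo and placenta and many maternally expressed members limit it. Imprints can be lost when mESCs are kept in culture, and the Dlk1/Meg3 and H19/Igf2 clusters are among those known to vary between lines. These libraries were not split by allele, so the values are the sum of both alleles and do not say whether an imprint was kept.

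Levels are given in FPKM, which corrects the fragments of a gene for its length and for the depth of the library. The change of a gene is the log2 ratio of FPKM + 0.1, PB-TERRA over PB, which understates the change of low genes. Reads were estimated from the FPKM values and gene lengths, and came to 24593747 in PB and 24674036 in PB-TERRA over all genes. A log2 ratio of these reads is given with its exact 95% binomial (Clopper-Pearson) interval, which covers counting error only and not the spread between cultures. The filter of at least 1 FPKM in at least 1 library was passed by 27 of the 34 genes and by 12263 of all genes. Of the 27, 1 gene, Magel2, passed in the PB library only. The mESC markers were all present, with Pou5f1 at 744.67 FPKM in PB against 773.31 in PB-TERRA, and Nanog at 186.41 against 173.37. The median log2 ratio of 10 such markers was 0.01, with the interval above 0 for 4 and below 0 for 4.

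The sequences that bear on the main results are the windows from 250 bases before to 50 bases after an annotated gene start, from RefSeq on GRCm38.p6, the mouse build of that table. They are shown for Snurf and Snrpn, which share a start, and for Igf2, Meg3 and Peg3, whose levels differed between the libraries. For genes with several windows, 1 that holds the hexamer described next is shown, and the other windows of Snrpn, Igf2 and Meg3 hold 0 copies of it. Each is written from 5′ to 3′ on the strand of its gene. Capitals mark the letters TGCCGC or their reverse complement GCGGCA, the hexamer that the zinc finger protein ZFP57 binds when its CpG is methylated.
Snurf and Snrpn, chr7:60005150-60005449, - strand: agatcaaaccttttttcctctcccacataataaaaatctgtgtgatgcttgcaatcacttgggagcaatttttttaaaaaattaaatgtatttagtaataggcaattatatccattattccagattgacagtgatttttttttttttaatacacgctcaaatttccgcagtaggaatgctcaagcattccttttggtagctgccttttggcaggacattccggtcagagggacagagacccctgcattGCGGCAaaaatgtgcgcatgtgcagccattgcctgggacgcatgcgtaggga
Igf2, chr7:142661222-142661521, - strand: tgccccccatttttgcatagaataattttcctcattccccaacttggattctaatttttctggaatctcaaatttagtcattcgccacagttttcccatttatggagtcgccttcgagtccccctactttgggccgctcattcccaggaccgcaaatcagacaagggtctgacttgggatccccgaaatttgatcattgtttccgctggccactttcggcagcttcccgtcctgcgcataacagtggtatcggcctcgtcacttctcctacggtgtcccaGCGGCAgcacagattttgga
Meg3, chr12:109540746-109541045, + strand: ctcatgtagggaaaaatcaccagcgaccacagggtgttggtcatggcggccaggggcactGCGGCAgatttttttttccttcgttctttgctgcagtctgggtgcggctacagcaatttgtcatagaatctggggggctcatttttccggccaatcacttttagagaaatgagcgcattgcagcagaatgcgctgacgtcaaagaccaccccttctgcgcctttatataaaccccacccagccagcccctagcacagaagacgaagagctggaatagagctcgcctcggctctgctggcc
Peg3, chr7:6730370-6730669, - strand: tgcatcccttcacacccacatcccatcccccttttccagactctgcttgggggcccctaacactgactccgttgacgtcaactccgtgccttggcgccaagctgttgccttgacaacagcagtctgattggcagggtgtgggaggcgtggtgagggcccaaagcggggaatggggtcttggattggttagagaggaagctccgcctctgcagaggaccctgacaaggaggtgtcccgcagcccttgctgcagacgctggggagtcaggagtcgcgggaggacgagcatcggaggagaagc
RefSeq windows were found for 28 of the 34 genes, 42 windows in all, since a gene can have several starts. The Snurf window is letter for letter 1 of the 4 Snrpn windows. Peg3 and Usp29 are transcribed away from each other, and 263 of the 300 bases of their windows are the same stretch of the chromosome. The hexamer, on either strand, was in 12 of the 42 windows (28.57%), of 11 genes, and in 11.61% of all 32851 windows of the table. The 12 windows are not all distinct stretches. The window of Snurf and Snrpn is counted for both genes, and the Mest windows from base 30737800 and from base 30737803 are nearly the same stretch. The windows of the imprinted genes also had more CpG pairs, with a median of 13.5 against 7.0 in all windows. A match of these letters is a description and not a bound site, and DNA methylation was not measured.

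Across the 27 genes past the filter, 12 had a log2 ratio above 0 and 15 below it. The share above 0 over all genes past the filter was 48.6%. The median log2 ratio of the 27 genes was -0.04, beside -0.0044 for all genes. A log2 ratio past 1 or -1 was reached by 1 of the 27, Snurf, and by 0.913% of all genes, and 0.473% of all genes had a log2 ratio of -1 or lower. Counting intervals were available for 25 of the 27. They lay above 0 for 6 genes, below 0 for 6 and included 0 for 13. Over all genes past the filter, 18.2% lay above 0, 17.3% below 0 and 35.5% on either side. The 6 higher genes were Igf2, Cdkn1c, H19, Peg10, Peg3 and Grb10, and the 6 lower genes were Snurf, Magel2, Meg3, Commd1, Gnas and Rian. An interval leaves out 0 more easily when a gene has more reads. At 10 FPKM or more in each library, 14 of the imprinted genes had an interval, above 0 for 5 and below 0 for 4. Of all 6288 genes at that level with an interval, 1390 lay above 0 and 1391 below it.

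**Figure D1:**
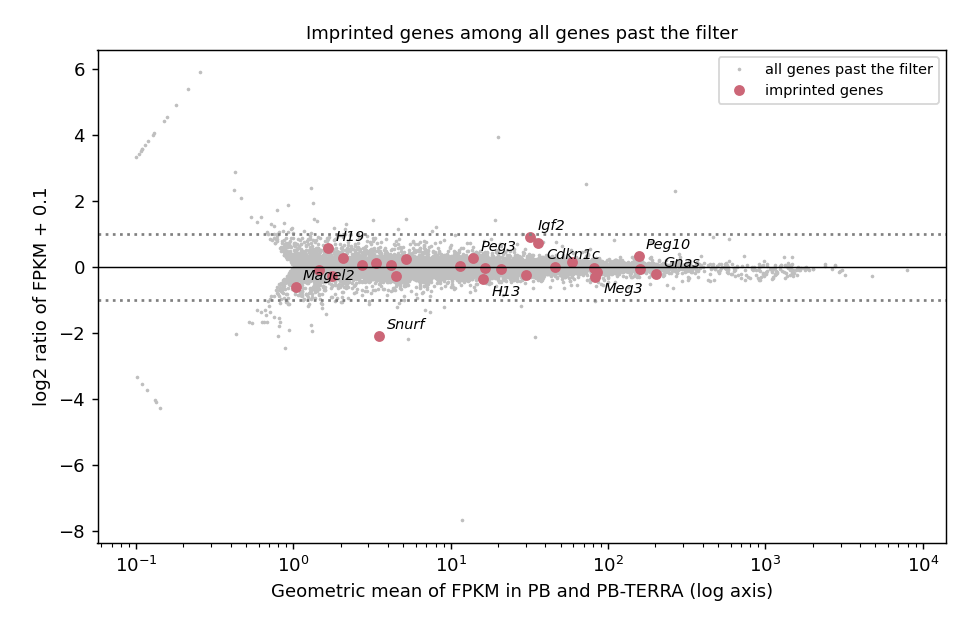
Log2 ratio of FPKM + 0.1 (PB-TERRA over PB) against the geometric mean FPKM of both libraries on a log axis, for 12263 genes past the filter (grey) and the 27 imprinted genes among them (red). Snurf lies below the dotted line at -1, and Igf2 and Cdkn1c lie near the upper edge of the grey points at their level.

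Levels spanned a wide range. Gnas, which encodes the stimulatory G protein alpha subunit, was the most abundant at 218.54 FPKM in PB against 188.10 in PB-TERRA, followed in PB by Phlda2, Peg10, Meg3, Rian and Snrpn. A level of 10 FPKM or more in each library was found for 16 of the 34 genes. At the other end, 7 genes were under 1 FPKM in both libraries. These were Kcnq1ot1, Zim1, Plagl1, Airn, Usp29, Nap1l5 and Peg13. The order of Phlda2 and Peg10 was not the same in the libraries, with Peg10 above Phlda2 in PB-TERRA.

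**Figure D2:**
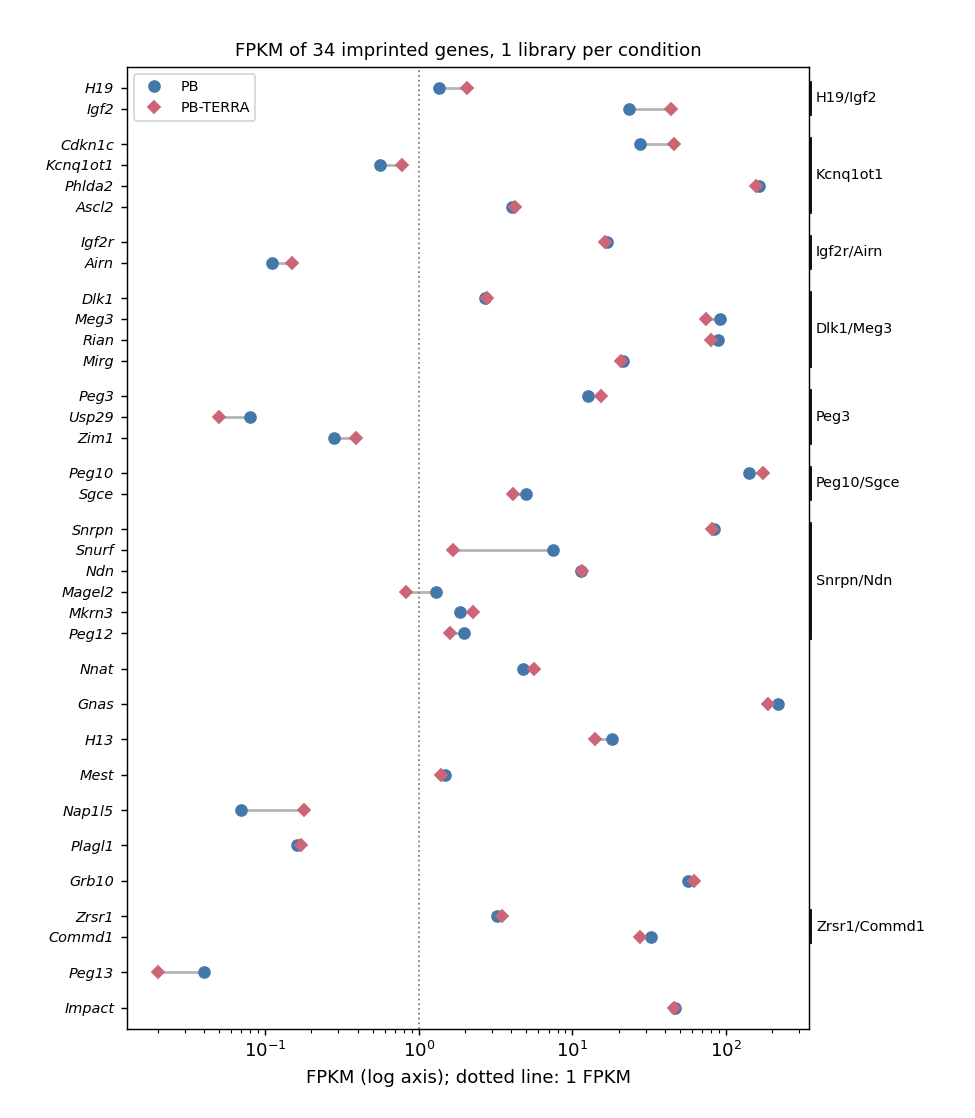
FPKM of each of the 34 genes in the PB library (circles) and the PB-TERRA library (diamonds) on a log axis, grouped by imprinted cluster, with a dotted line at 1 FPKM. The widest gap among genes above 1 FPKM is that of Snurf, from 7.42 to 1.66 FPKM, and most pairs of points lie close together.

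The largest difference past the filter was in the Snrpn/Ndn cluster, whose members are paternally expressed and whose human counterpart is the Prader-Willi region. Snurf, the upstream reading frame of the Snrpn transcript (NCBI Gene 84704), was at 7.42 FPKM in PB against 1.66 in PB-TERRA. These values correspond to an estimated 339 and 76 reads. The log2 ratio was -2.10, and that of the reads was -2.16 (95% interval -2.54 to -1.80). Only 11 of the 12263 genes past the filter had a lower log2 ratio.
Snrpn, which encodes the splicing protein SmN, did not show this difference. It was at 83.45 FPKM in PB against 80.45 in PB-TERRA, a log2 ratio of -0.05 (reads 3809 and 3686, 95% interval -0.12 to 0.01 for their log2 ratio). Both reading frames lie on 1 bicistronic transcript, and the deposited lengths of their rows are 1971 bases for Snurf and 1970 for Snrpn. In the GENCODE M21 annotation on GRCm38, all 216 bases of the annotated Snurf transcript lie in exons of Snrpn on the same strand, and 100% of its 50-base stretches occur in transcripts of other gene entries. Single values of these rows are therefore uncertain, because reads of a shared transcript could be given to either. The Snurf row held 8.17% of the summed FPKM of both rows in PB and 2.02% in PB-TERRA.
Summed over both rows, which does not depend on that division, the FPKM was 90.87 in PB and 82.11 in PB-TERRA. The summed reads were 4148 and 3762, and their log2 ratio was -0.15 (95% interval -0.21 to -0.08). Since the Snrpn row makes up most of the sum, the sum says little about the Snurf row.

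**Figure D3:**
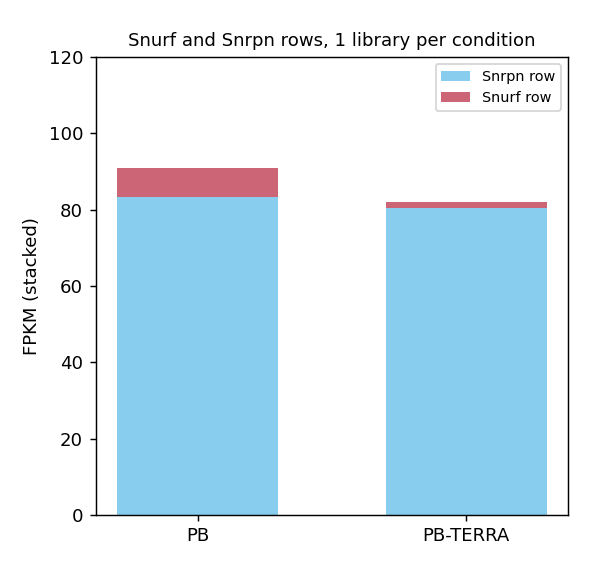
Stacked FPKM of the Snrpn row (lower, blue) and the Snurf row (upper, red) in the PB and PB-TERRA libraries. The stacks reach 90.87 and 82.11 FPKM, and the Snurf part is 7.42 FPKM in PB against 1.66 in PB-TERRA.

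Of the intronless genes farther along the cluster, Magel2 was lower in PB-TERRA and the intervals of the other three included 0. Magel2, a MAGE family gene, was at 1.30 FPKM in PB against 0.82 in PB-TERRA, from an estimated 145 and 92 reads. Its log2 ratio was -0.61, and that of the reads was -0.66 (95% interval -1.05 to -0.27). Necdin, encoded by Ndn and of the same family, was at nearly the same level in both libraries, with 11.34 and 11.48 FPKM (read log2 ratio 0.02, 95% interval -0.18 to 0.21). The ring finger gene Mkrn3 had 1.86 and 2.27 FPKM, and Peg12, of the FRAT family of GSK3 inhibitors, had 1.96 and 1.59 FPKM. At 99 to 137 reads a difference of this size was not detectable. These 4 genes shared no 50-base stretch with transcripts of another gene in the annotation (0%).

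Of the 27 genes past the filter, Igf2 of the H19/Igf2 cluster, which encodes an insulin-like growth factor, had the highest log2 ratio. Igf2 (NCBI Gene 16002) is paternally expressed and was at 23.52 FPKM in PB against 43.80 in PB-TERRA, a 1.86-fold higher level. The estimated reads were 2136 and 3992, with a log2 ratio of 0.90 (95% interval 0.82 to 0.97). Of 6290 genes at 10 FPKM or more in each library, 4 had a higher log2 ratio of FPKM + 0.1. H19, the maternally expressed noncoding RNA that competes with Igf2 for shared enhancers, was at a far lower level, 1.35 FPKM in PB against 2.05 in PB-TERRA. Its reads were 72 and 110 (log2 ratio 0.61, 95% interval 0.17 to 1.06), so H19 was also higher in PB-TERRA.
Igf2 had 17.4 times the FPKM of H19 in PB and 21.4 times in PB-TERRA. The antisense gene Igf2os, which overlaps Igf2 on the opposite strand, had 0.40 and 0.86 FPKM (reads 46 and 99, read log2 ratio 1.10, 95% interval 0.58 to 1.64). The kit does not mark strand, so reads from overlapping exons of Igf2 and Igf2os cannot be told apart, and 98 of the 5723 exon bases of Igf2 overlap. In the annotation 62.08% of the 50-base stretches of Igf2 also occur in transcripts of another gene entry on the same locus, so its single value carries that uncertainty. Mrpl23, a mitochondrial ribosomal protein gene on the other side of H19, was lower in PB-TERRA, with 69.30 and 53.38 FPKM (read log2 ratio -0.38, 95% interval -0.53 to -0.22). The receptor Igf2r, which clears IGF2 from the cell surface, lies in a different cluster and was similar in both libraries at 16.80 and 16.29 FPKM. The interval of its log2 ratio of reads, -0.11 to 0.02, included 0. Airn, the antisense RNA that silences the paternal Igf2r allele, was at 0.11 and 0.15 FPKM from an estimated 3 and 4 reads, too few for a comparison.

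In the Kcnq1ot1 cluster, next to H19/Igf2 on distal chromosome 7, Cdkn1c and Kcnq1ot1 were both higher in PB-TERRA. Cdkn1c, a maternally expressed inhibitor of cyclin-dependent kinases, was at 27.72 FPKM in PB against 46.06 in PB-TERRA, a 1.66-fold higher level. Its estimated reads were 1229 and 2050 (log2 ratio 0.73, 95% interval 0.63 to 0.84), and 24.94% of its 50-base stretches also occur in transcripts of another gene entry. Of the same 6290 genes, 14 had a higher log2 ratio of FPKM + 0.1. Kcnq1ot1, the paternally expressed noncoding RNA that silences Cdkn1c and its neighbours on the same chromosome, had 0.56 and 0.78 FPKM. It did not pass the filter, but its row is 83437 bases long and held an estimated 1145 and 1601 reads (log2 ratio 0.48, 95% interval 0.37 to 0.59). The noncoding RNA and a gene it is known to silence were both higher in the same library. The alleles were not split, so whether silencing differed was not tested.
For Phlda2 and Ascl2, the other maternally expressed genes of the 34 in this cluster, no difference was detectable. Phlda2, which limits placental growth, had 162.94 and 156.48 FPKM, and the interval of its reads, -0.14 to 0.02, included 0. Ascl2, a transcription factor of the trophoblast, had 4.07 and 4.26 FPKM from 150 and 158 reads, and its interval, -0.26 to 0.40, also included 0. Kcnq1, in whose introns Kcnq1ot1 starts, was at 0.03 and 0.01 FPKM.

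In the Dlk1/Meg3 cluster, the maternally expressed noncoding RNAs Meg3 and Rian were lower in PB-TERRA, while the interval of the paternally expressed coding gene Dlk1 included 0. Meg3, a long noncoding RNA, was at 91.57 FPKM in PB against 74.22 in PB-TERRA, with a log2 ratio of the reads of -0.30 (95% interval -0.35 to -0.25). Rian, which hosts C/D snoRNAs, had 89.03 and 80.27 FPKM (read log2 ratio -0.15, 95% interval -0.20 to -0.10). Mirg, which hosts microRNAs, had 21.43 and 20.59 FPKM, a log2 ratio of -0.06. Summed over Meg3 and Rian, the reads were 15365 and 13222 (log2 ratio -0.22, 95% interval -0.26 to -0.19). Dlk1, a transmembrane ligand related to those of Notch, was low at 2.69 and 2.79 FPKM, with 278 and 290 reads and an interval of the log2 ratio from -0.19 to 0.30. Meg3 had 34.04 times the FPKM of Dlk1 in PB and 26.6 times in PB-TERRA. No interval is given for Mirg, nor for H13 below, because other columns of the table imply read numbers for these 2 genes that their FPKM and length do not give. The estimated reads of Meg3 and Gnas also came out higher than those columns imply, so their intervals are too narrow if those columns hold.

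The Peg10/Sgce and Peg3 clusters each had 1 abundant member that was higher in PB-TERRA. Peg10, a paternally expressed gene derived from a retrotransposon and needed by the placenta, was at 140.80 FPKM in PB against 174.74 in PB-TERRA (reads 22480 and 28001, log2 ratio 0.31, 95% interval 0.29 to 0.34). Sgce, which encodes epsilon-sarcoglycan and is transcribed from the same region in the opposite direction, had 4.95 and 4.08 FPKM. Its log2 ratio of reads was -0.28 with an interval, -0.59 to 0.03, that included 0. Peg3, a zinc finger gene, had 12.67 and 15.28 FPKM (reads 2025 and 2452, log2 ratio 0.27, 95% interval 0.19 to 0.36).
Usp29, a ubiquitin protease gene that starts within the same window as Peg3, had 0.08 and 0.05 FPKM from 14 and 9 reads. Zim1, the maternally expressed zinc finger gene of the cluster, had 0.28 and 0.39 FPKM from 23 and 33 reads. Both intervals included 0, so neither difference was detectable at this depth. The antisense gene Peg3os was at the floor of 0.01 FPKM in PB and at 0.68 FPKM in PB-TERRA, an estimated 0 and 13 reads. The lower end of its interval was 1.60. Without strand, reads from any stretch that Peg3os shares with a gene on the other strand cannot be told apart.

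**Figure D4:**
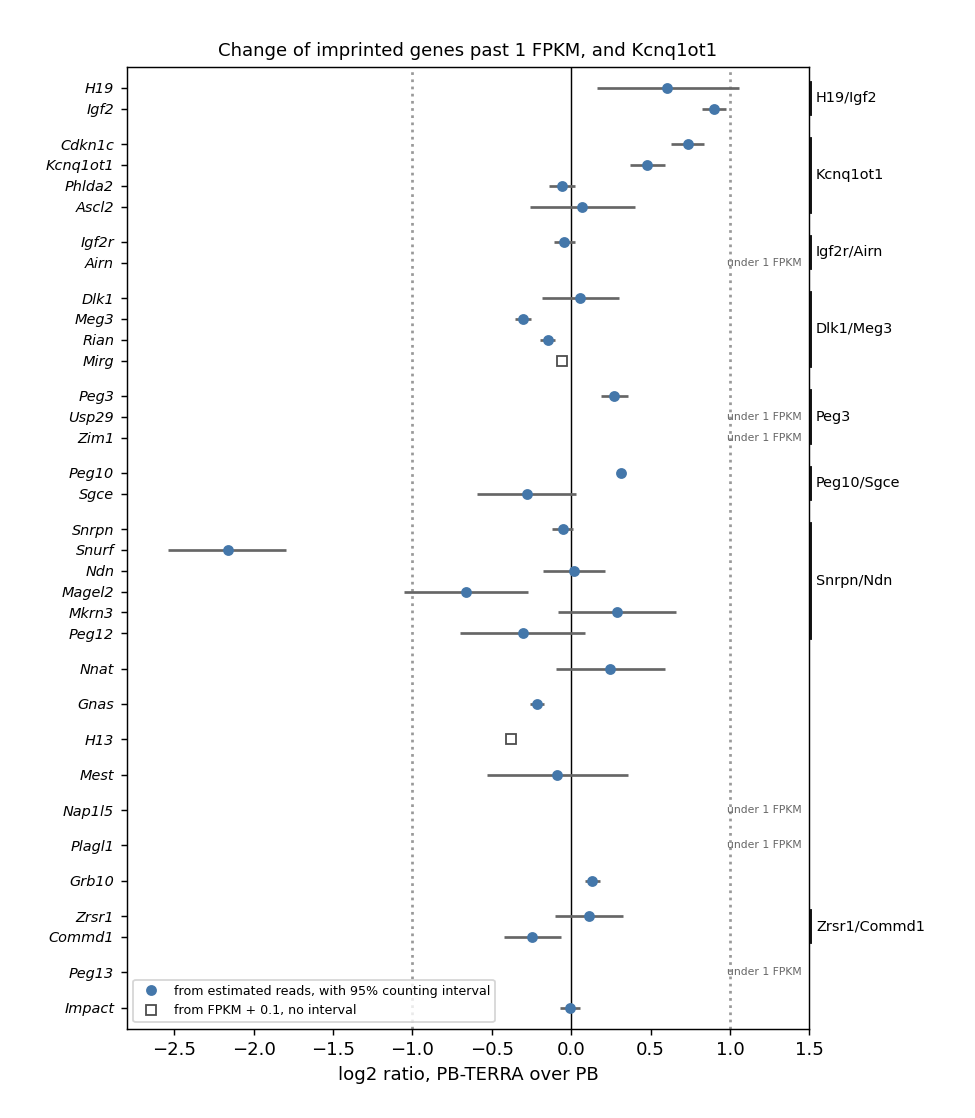
Log2 ratio of estimated reads (PB-TERRA over PB) with its exact 95% counting interval for 25 genes past the filter and Kcnq1ot1, and the log2 ratio of FPKM + 0.1 without an interval for Mirg and H13 (open squares), with no point for the other genes under 1 FPKM. Igf2, Cdkn1c, H19 and Kcnq1ot1 of distal chromosome 7 lie to the right of 0, and Snurf, at -2.16, lies alone to the left of -1.

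The remaining groups hold 1 gene each, or a retrogene inside another gene. Grb10, an adaptor of the insulin and IGF1 receptors, was at 56.19 FPKM in PB against 61.61 in PB-TERRA (read log2 ratio 0.13, 95% interval 0.09 to 0.18). Gnas was lower in PB-TERRA (read log2 ratio -0.22, 95% interval -0.26 to -0.17), and its row joins several imprinted and non-imprinted transcripts that the table does not separate. Commd1, a gene of copper metabolism, had 32.63 and 27.54 FPKM (read log2 ratio -0.24, 95% interval -0.42 to -0.07). Zrsr1, a U2AF1-related retrogene in an intron of Commd1 on the opposite strand, had 3.24 and 3.50 FPKM, and its interval, -0.10 to 0.33, included 0. The annotation gives Zrsr1 and Commd1 412 shared exon bases on opposite strands, where their reads cannot be told apart.
H13, which encodes a signal peptide peptidase, was at 18.20 FPKM in PB against 13.97 in PB-TERRA, a log2 ratio of -0.38. Mcts2, the retrogene inside H13 from whose promoter the imprint acts on H13, had 14.36 and 16.30 FPKM, and its interval, -0.07 to 0.44, included 0. The annotation lists 6 H13 transcripts, from 798 to 5204 bases, and the table gives 1 value for all of them.
Impact, an inhibitor of the kinase GCN2, was the most even of the abundant genes, with 46.26 and 46.01 FPKM and an interval from -0.07 to 0.06. Nnat, which encodes a small membrane protein, had 4.76 and 5.65 FPKM, and Mest, an alpha/beta hydrolase-like gene, had 1.49 and 1.40 FPKM, and both intervals included 0. Blcap, the host gene of Nnat, was higher in PB-TERRA, with 15.33 and 18.43 FPKM (read log2 ratio 0.27, 95% interval 0.13 to 0.41). Nap1l5, a nucleosome assembly protein-like retrogene, had 0.07 and 0.18 FPKM from 3 and 8 reads. Peg13, a noncoding RNA, had 0.04 and 0.02 FPKM from 5 and 2 reads, and Plagl1, a zinc finger transcription factor, had 0.16 and 0.17 FPKM from 20 and 22 reads. The intervals of these 3 genes included 0, and their differences were not detectable at this depth.

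Summed over a cluster, the level of Snrpn/Ndn was 107.33 FPKM in PB against 98.27 in PB-TERRA and that of Dlk1/Meg3 was 204.72 against 177.87. The sum of Zrsr1/Commd1 was 35.87 against 31.04, and that of Igf2r/Airn, nearly all of it Igf2r, was 16.91 against 16.44. The sums of H19/Igf2 (24.87 against 45.85), Kcnq1ot1 (195.29 against 207.58), Peg10/Sgce (145.75 against 178.82) and Peg3 (13.03 against 15.72) were higher in PB-TERRA. Over all 34 genes the sums were nearly equal, 1089.48 against 1088.70 FPKM.

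Set by the allele that is usually expressed, the maternally expressed genes past the filter were 3 above and 7 below 0, with a median log2 ratio of -0.06. The paternally expressed ones were 8 above and 7 below 0, with a median of 0.02. Both classes held genes whose intervals lay above 0 and genes whose intervals lay below it, 2 and 3 among the maternally expressed genes and 3 and 2 among the paternally expressed ones. Over all genes past the filter, 48.6% had a log2 ratio above 0, 18.2% an interval above 0 and 17.3% an interval below it. Gnas and Grb10, whose expressed allele depends on the isoform or the tissue, are in neither class. For the other genes the class is the usual one, and it was not tested in these cells, because the alleles were not split. That limit includes H13, Commd1 and Igf2r, which were counted as maternally expressed and lay below 0. The row of H13 also joins several transcripts, as described above. Of the 7 noncoding RNAs, 4 passed the filter, with H19 above 0 and the other three, Meg3, Rian and Mirg, below it.

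A wider list of 50 imprinted genes outside the 34 was written from general knowledge, and 44 of them were in the table. Of the 29 past the filter, 17 were above and 12 below 0, with a median log2 ratio of 0.06. A log2 ratio past 1 or -1 was found for 0 of these 29 (0.913% of all genes), and the extremes were -0.63 and 0.49. The interval lay above 0 for 7 (18.2% of all genes) and below 0 for 7 (17.3% of all genes). Of 19 factors that write, protect or remove DNA methylation or chromatin marks at imprints, all past the filter, 14 were above 0 (48.6% of all genes) and 5 below it, with a median of 0.08. The interval lay above 0 for 8 of the 19 and below 0 for 3, beside the same 18.2% and 17.3% of all genes. Most of the 19 are abundant, and their intervals are narrow for that reason. Of all 6288 genes with an interval at 10 FPKM or more in each library, 1390 lay above 0 and 1391 below it. Zfp57, which binds the methylated hexamer shown above, was at 134.30 FPKM in PB against 158.45 in PB-TERRA (read log2 ratio 0.24, 95% interval 0.19 to 0.29). Its partner Trim28 had 536.30 and 480.33 FPKM (read log2 ratio -0.16, 95% interval -0.18 to -0.14). The demethylating enzyme Tet1 had 60.90 and 71.04 FPKM (read log2 ratio 0.22, 95% interval 0.20 to 0.25), and its relative Tet2 had 24.68 and 27.97 FPKM, with an interval above 0 too. The DNA methyltransferase genes did not move together. Dnmt3b was lower in PB-TERRA, with 131.59 and 117.26 FPKM (read log2 ratio -0.17, 95% interval -0.20 to -0.13). Dnmt3a was higher, with 18.18 and 20.07 FPKM (read log2 ratio 0.14, 95% interval 0.08 to 0.20), and the interval of Dnmt1, which had 68.78 and 68.46 FPKM, was -0.05 to 0.04.

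Several of these imprinted genes are abundant in extraembryonic or mesenchymal cells, so marker lists of other cell types were read in the same libraries. Of 12 primitive endoderm markers, 10 passed the filter and all 10 were above 0 (48.6% of all genes), with the interval above 0 for 8 (18.2% of all genes) and a median log2 ratio of 0.31, and their summed level was 140.75 FPKM in PB against 151.17 in PB-TERRA. Of 11 trophoblast markers in the table, 4 passed, 3 of them above 0, and the sum was 19.05 and 22.01 FPKM. The intervals of Hand1 and Cdx2 lay above 0 and that of Eomes below it. Of 11 fibroblast markers, 5 passed, 3 of them above 0, and the sum was 32.09 and 34.44 FPKM. The intervals of Col1a1 and Col1a2 lay above 0 and that of Fbln1 below it. The 10 neural markers summed to 90.16 and 78.57 FPKM with 2 of 4 past the filter above 0, and the 10 mesoderm markers to 17.75 and 15.98 FPKM with 1 of 3 above 0. In these lists the intervals of Sox1 and Kdr lay above 0 and those of Nes, Tubb3 and Eomes, which is in the trophoblast list as well, below it. At the floor of 0.01 FPKM were Prl3d1, Prrx1 and Neurog2 in PB, Psg17 in PB-TERRA and Dcx in both. More cells of such a type and more RNA per cell cannot be told apart in bulk RNA, and the part of these cells in the differences of Igf2, Cdkn1c and Peg10 was not tested.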

How the data were processed

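Libraries were made from total RNA with a TruSeq RNA v2 kit, which does not mark strand, and sequenced on a BGISEQ500, 1 per condition. The submitters' processing notes name HISAT, Cufflinks and the build mm9, without version or role. The authors deposited 1 table of FPKM values per gene, rounded to 2 decimals with a floor of 0.01. The unit is not in the header and was taken from the values. Low values of short genes were whole multiples of 1 read, within 0.2 reads for 85.3% of 775 genes in PB and 89.0% of 837 in PB-TERRA (40% for evenly spread values), once 110 bases, a fitted number, were taken off the length. Reads were estimated from this step and rounded. The floor value was held by 1117 genes in PB against 997 in PB-TERRA. The authors' columns of log2 fold change, p-value, adjusted p-value and direction hold their own comparison of the libraries, and no value was taken from them. They were looked at while the read estimate was being checked, and implied other read numbers for H13 and Mirg, which were then left without an interval, and lower ones for Meg3 and Gnas, which kept theirs.

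The filter was 1 FPKM in at least 1 library, the pseudocount 0.1 and the threshold 1 on the absolute log2 ratio. No test was run. The member genes and the gene lists were chosen with earlier results of these data known. So was the rule that all members be named and that their host or overlapping genes may be. Alternatives changed the pseudocount, the filter, the scaling, the interval and the length. Annotation was GENCODE M21 and RefSeq on GRCm38, another build than mm9, so no coordinate was joined to the files. The computations were tested on simulated data. The software was scipy 1.17.1, pandas 2.3.3, numpy 2.4.6 and, for the plots, matplotlib 3.10.9, under Python 3.11.15.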

Additional observations from a re-analysis of the deposited data

How the results depend on the processing

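No paired analysis was possible because each condition has 1 library, and for the same reason no library could be left out. The median log2 ratio of the 27 genes, -0.04, was 0.0049 over all 34 genes with no filter and -0.0065 with the values rescaled to TPM, which moved the median of all genes to 0.03. The rescaling multiplies each library by 1 constant and moved the median of all genes by 0.0378, and leaving out the filter adds the 7 genes of low level. The count past a log2 ratio of 1 or -1, which was 1, became 0 with a mean of at least 5 FPKM, because Snurf then left the genes compared. The other alternatives for these results, for the count of intervals that left out 0 (12 to 13 genes, 13 with H13 and Mirg counted) and for the Snurf and Snrpn sum (-0.15 to -0.14) stayed within 1.5 times or within the interval. Under 6 alternatives for single genes, 2 of the 27 changed sign, Phlda2 and Impact, both with intervals that included 0, and 0 of those with an interval on 1 side. With a pseudocount of 1 the log2 ratio moved from -2.10 to -1.66 for Snurf, from -0.61 to -0.34 for Magel2, from 0.57 to 0.38 for H19 and from 0.41 to 0.19 for Kcnq1ot1. That of Gnas moved from -0.22 to -0.16 with the median of genes of like length taken off. That of Peg10 moved from 0.31 to 0.35 with the values rescaled to TPM. For Snurf, Kcnq1ot1, Gnas and Peg10 the moved value lay outside the counting interval, with the sign kept. Leaving the length as deposited, and counting H13 and Mirg, were chosen after seeing the data. Depth limits Airn, Usp29, Zim1, Nap1l5, Plagl1 and Peg13 most, which had 33 reads or fewer.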

Other observations

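Among the 29 imprinted genes outside the 34 that passed the filter, Calcr had the lowest log2 ratio and Ddc the highest. Calcr, the calcitonin receptor gene near Peg10, was at 1.77 FPKM in PB against 1.11 in PB-TERRA, with 146 and 92 estimated reads (read log2 ratio -0.67, 95% interval -1.06 to -0.28). Ddc, the decarboxylase gene beside Grb10, had 5.99 and 8.46 FPKM (read log2 ratio 0.50, 95% interval 0.20 to 0.80). Cobl, on the other side of Grb10, had 28.85 and 37.13 FPKM (read log2 ratio 0.36, 95% interval 0.30 to 0.43), so the intervals of Ddc, Cobl and Grb10 all lay above 0. Calcr, Ddc and Cobl were named after their values were seen.

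Of a list of 11 host, overlapping or nearby genes of the 34, 7 passed the filter, 3 above and 4 below 0. The interval lay above 0 for 1, Blcap (18.2% of all genes past the filter), and below 0 for 4 (17.3% of all genes past the filter). Among the 7, Casd1 and Mrpl23 are nearby genes for which the annotation gave no overlap with a member. All of these 7 but Mrpl23 were also counted in the wider imprinted list. The 4 lower genes were Mrpl23, described above, and the host or overlapping genes Herc3, Trappc9 and Copg2. Herc3, the host of Nap1l5, had 3.57 and 3.08 FPKM (read log2 ratio -0.21, 95% interval -0.42 to -0.008). Trappc9, the host of Peg13, had 8.64 and 7.76 FPKM (read log2 ratio -0.15, 95% interval -0.31 to -0.0014). Copg2, which overlaps Mest on the opposite strand, had 14.39 and 12.89 FPKM (read log2 ratio -0.16, 95% interval -0.27 to -0.05). The annotation gives Mest and Copg2 912 shared exon bases, and without strand their reads there cannot be told apart.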
